A study of Mus musculus with 12 samples.

Results

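Osteoclasts are the bone-resorbing cells that form by fusion of monocyte precursors, and stromal cells control their formation through a small set of secreted and membrane-bound factors. RANKL, encoded by Tnfsf11, binds the receptor RANK on precursors and starts their differentiation, while osteoprotegerin, a soluble decoy receptor encoded by Tnfrsf11b, binds RANKL and blocks it. M-CSF and IL-34, encoded by Csf1 and Il34, share the receptor CSF1R and keep the precursors alive and dividing. Estrogen is known to restrain bone resorption, and RANKL and osteoprotegerin are among the genes studied in that context. The genes described here are these 4 stromal regulators and 6 receptors and markers of osteoclasts, namely Tnfrsf11a, Acp5, Ctsk, Calcr, Dcstamp and Oscar. They were chosen by name, and all 10 had exactly 1 row in each deposited table of 25655 genes.

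The series profiled PDGFRα+ mesenchymal cells after loss of Esr1, the gene of estrogen receptor alpha, and asked which Esr1 targets in muscle cells bear on bone metabolism. Knockout samples of both tissues carried PDGFRα-CreER and Esr1flox/flox (3 muscle, 3 bone), so Cre activity was placed under the Pdgfra gene's control and could reach only cells that use that promoter. Muscle controls carried PDGFRα-CreER alone in 2 samples and PDGFRα-CreER;Esr1flox/+ in 1 sample, and bone controls carried PDGFRα-CreER alone in 2 samples and Esr1flox/flox without Cre in 1 sample. The sort took PDGFRα+ cells that lacked CD45 and CD31 from both tissues, and from muscle also excluded Vcam1+ cells. The series title names female mice, while the sources used here do not give the age, the induction of the Cre or whether replicates came from separate animals. The authors' p-values therefore measure only the spread between these samples, which may be technical.

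Transcript ends were read with a 3' mRNA kit. The values are the authors' own comparison of knockout over control in each tissue, since no per-library column carried a name that the labels match. No value per sample, depth, SD or n per value is therefore given. The level of a gene is the larger of its 2 group means, in a unit the header does not name. Levels of different genes are therefore set side by side only in the order the table gives them, or as rough sums over a list. In the authors' deposited table for muscle, the log2 fold change of Esr1 was 1.02 (FDR = 1.00) and that of Pdgfra, the sorting marker, was 0.50 at a level of 494. In the authors' deposited table for bone, Esr1 had -2.69 (FDR = 0.440) and Pdgfra 1.06 at a level of 8.60. A 3' tag may lie outside the floxed part, so these values do not check the genotypes. The gate markers were read as well. In the muscle table Ptprc, which encodes CD45, stood at 0.781 and Vcam1, whose protein the gate selected against, at 53.7. In the bone table Ptprc stood at 23.1 and the alpha globin gene Hba-a2 at 263063, so transcripts known from blood cells were present in the bone libraries. A list of 12 neutrophil and erythroid genes held 59.6% of the summed bone levels, and 11 PDGFRα+ mesenchymal markers held 0.212%. In muscle these shares were 0.344% and 2.12%.

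Promoter sequence is shown for the RANKL ligand and for Acp5, because the series asked for Esr1 targets and because Acp5 was the gene of this set with the motif match. RefSeq promoter windows on GRCm38.p6 were found for 7 of the 10 genes, in 10 windows of 240 bases that end 10 bases before the annotated start. The search was for the estrogen response half-site, GGTCA on either strand (TGACC on the other), and for the full element, GGTCA followed by any 3 bases and TGACC, which contains the half-site on both strands. The half-site was in 1 of the 10 windows, against 34.2% of all 32851 windows in the table, and the full element was in 0 of the 10, against 0.0578% of all. The match lay at a downstream alternative start of Acp5, 86 bases before it. The sequences run 5' to 3' on the minus strand, at chr14:78308054-78308293 for Tnfsf11 and chr9:22130609-22130848 for Acp5, and capitals mark the half-site.
Tnfsf11: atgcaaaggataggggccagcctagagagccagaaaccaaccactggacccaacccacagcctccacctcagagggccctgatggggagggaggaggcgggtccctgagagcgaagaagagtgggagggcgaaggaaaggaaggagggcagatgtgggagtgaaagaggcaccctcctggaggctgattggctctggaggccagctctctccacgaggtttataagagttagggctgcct
Acp5: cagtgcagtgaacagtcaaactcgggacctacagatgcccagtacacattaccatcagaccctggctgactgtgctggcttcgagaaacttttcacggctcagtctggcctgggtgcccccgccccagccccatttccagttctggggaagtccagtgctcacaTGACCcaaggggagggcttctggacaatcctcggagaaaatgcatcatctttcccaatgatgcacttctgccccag
A match of letters is not a binding site, and a window without one says only that these letters are not in it.

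By the order of levels, Csf1 stood first of the stromal regulators in both tables, and Ctsk stood first of the osteoclast markers in muscle and beside Acp5 in bone. Of the 10 genes, 8 were above 0 in the muscle table and 7 in the bone table, where 48.7% and 59% of all genes were listed at 0. In muscle the order ran from Ctsk (404) and Csf1 (166) through Il34 (12.3), Tnfrsf11b (12.1) and Acp5 (3.81) to Tnfrsf11a (0.325), Oscar (0.217) and Dcstamp (0.108), with Tnfsf11 and Calcr listed at 0. In bone it ran from Csf1 (41.3), Ctsk (33.7) and Acp5 (31.7) through Il34 (14.3) to Tnfrsf11a (0.706), Tnfrsf11b (0.608) and Tnfsf11 (0.605), with Calcr, Dcstamp and Oscar listed at 0. Because each level is the larger group mean, both orders mix genotypes. By the sign of the log2 fold change, the bone levels of Csf1 (3.45) and Il34 (7.21) were knockout means. Those of Ctsk (-0.45) and Acp5 (-0.46) in bone and of Tnfrsf11b (-7.91) in muscle were control means. The orders therefore do not describe control cells alone. The spread behind these means is not known, so neighbours in either order cannot be separated. In bulk samples, fewer cells of a type and less RNA per cell cannot be told apart.

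**Figure D1:**
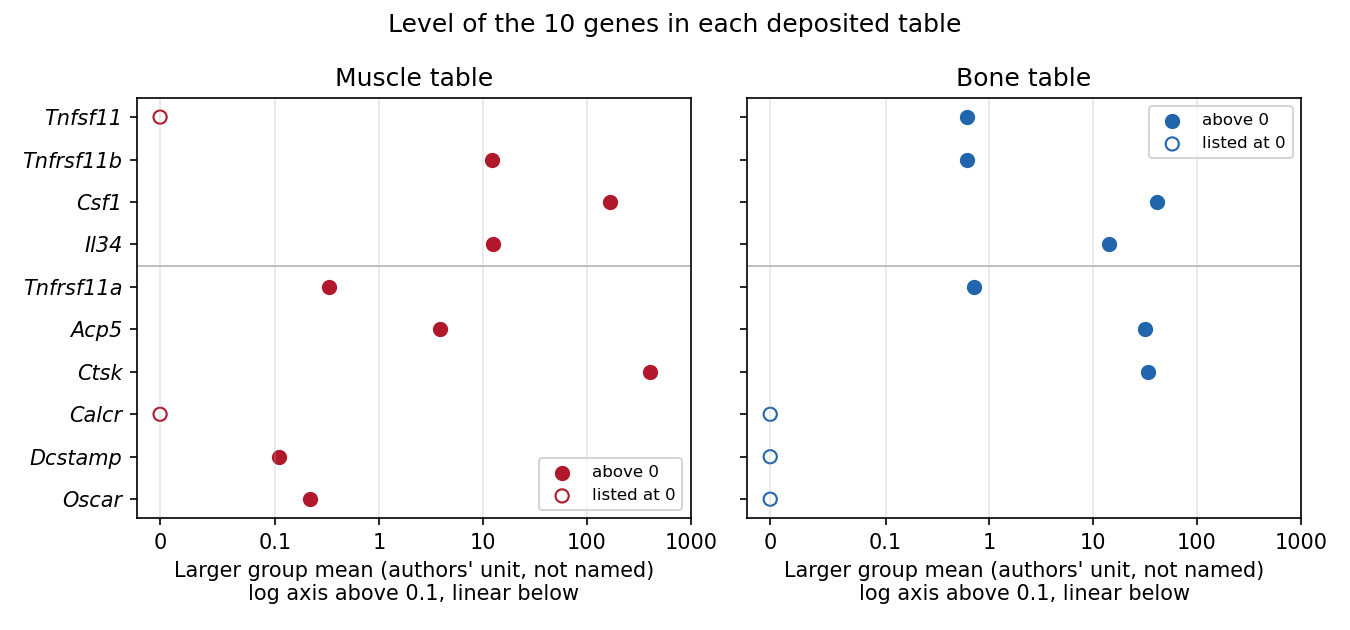
Level of each gene in the muscle table (left) and the bone table (right), as the higher group mean of knockout and control in the authors' unit, on an axis that is logarithmic above 0.1; open circles are genes listed at 0, and the grey line separates the 4 stromal regulators from the 6 receptors and markers. Csf1 and Ctsk lie above 30 in both tables, and Calcr is at 0 in both.

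The tables are separate and may have been normalized apart. Levels were therefore compared between tissues only by their place within each table and without a test. Among genes above 0, Ctsk lay above 96.9% in muscle and 77.2% in bone, and Csf1 above 92.6% and 81.3%. Acp5 ran the other way, above 21.6% in muscle and 76.2% in bone. Il34 lay above 42.1% in muscle and 59.4% in bone. By the sign of their fold changes, Csf1 and Il34 were placed by control means in muscle and knockout means in bone. For Acp5 it was the reverse, so these places differ in genotype as well as tissue. Ctsk was placed by its control mean in both. Dcstamp stood at the smallest value above 0 in the muscle table, shared by 256 genes (equal to within 1e-06), and Oscar and Tnfrsf11a at 2 and 3 times that value. These 3 genes were therefore at the floor of what the muscle table records.

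At the authors' FDR of 0.05 none of the 10 genes passed in muscle or in bone. Over all genes with an FDR, 9 of 7107 passed in muscle (0.127%) and 3 of 8534 in bone (0.0352%). An FDR was given for only 2 of the 10 genes in muscle, Csf1 and Ctsk, and for 4 in bone, Csf1, Il34, Acp5 and Ctsk. The others with a p had levels of 12.3 or lower in muscle and 0.706 or lower in bone. At an unadjusted p under 0.05, 1 of the 8 muscle genes with a p was below the threshold, against 11.7% of all muscle genes, and 1 of the 7 bone genes, against 33% of all bone genes. These were Tnfrsf11b in muscle and Il34 in bone. Tnfrsf11b was lower, as were 5.31% of all muscle genes at that p, while 6.41% were higher. Il34 was higher, as were 28.8% of all bone genes at that p, while 4.2% were lower. At an FDR under 0.1, 0 of the 2 with an FDR passed in muscle, against 0.183% of all muscle genes with an FDR. In bone 1 of the 4 with an FDR passed, again Il34, against 32.2% of all bone genes with an FDR. The 95% intervals given below were computed from each fold change and its p by a normal approximation, because the authors' test is not named.

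Among the stromal regulators in muscle, the M-CSF gene Csf1 (ENSMUSG00000014599, chromosome 3, 107741048 to 107760469 on GRCm38) had a fold change close to 0. The authors' deposited table put its log2 fold change at -0.10 (p = 0.868, FDR = 1.00), with an approximate interval of -1.24 to 1.04. The interval spans changes in both directions. Il34 (ENSMUSG00000031750, chromosome 8, 110741829 to 110805924) stood at -1.11 in the authors' deposited table (p = 0.565, no FDR), with an interval of -4.91 to 2.68. Il34 shares its locus with 2 antisense genes, Gm15894 and Gm15895, and the sources used here do not say whether strand was used in counting. RANKL had no value to compare, since Tnfsf11 (ENSMUSG00000022015, chromosome 14, 78277445 to 78308043) was listed at 0 in both muscle groups.

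Osteoprotegerin had the largest muscle value of the set. Tnfrsf11b (ENSMUSG00000063727, chromosome 15, 54250619 to 54278484) stood at a log2 fold change of -7.91 per the authors' deposited table (unadjusted p = 0.0141, Bonferroni p = 1.00, no FDR), at a level of 12.1. Adjusted with Benjamini-Hochberg over all 13158 muscle genes with a p, it did not pass (0.408). Among 587 genes within 10% of its level the log2 fold changes ran from -8.11 to 8.17, 27 of them (4.60%) were as low or lower, and 19.1% had an unadjusted p under 0.05. Myod1, a transcription factor gene of muscle stem cells, had -7.75 in the authors' deposited table for muscle (p = 0.0163, no FDR). Its level was 10.3. Of 10 muscle stem cell marker genes, which include Myod1, 3 were at 0 in muscle, namely Pax7, Myf5 and Cdh15. Of the others, 4 were positive and 3 negative. Their median log2 fold change was 0.21, against 0.12 over all muscle genes. The part of such cells in the Tnfrsf11b value was not tested.

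**Figure D2:**
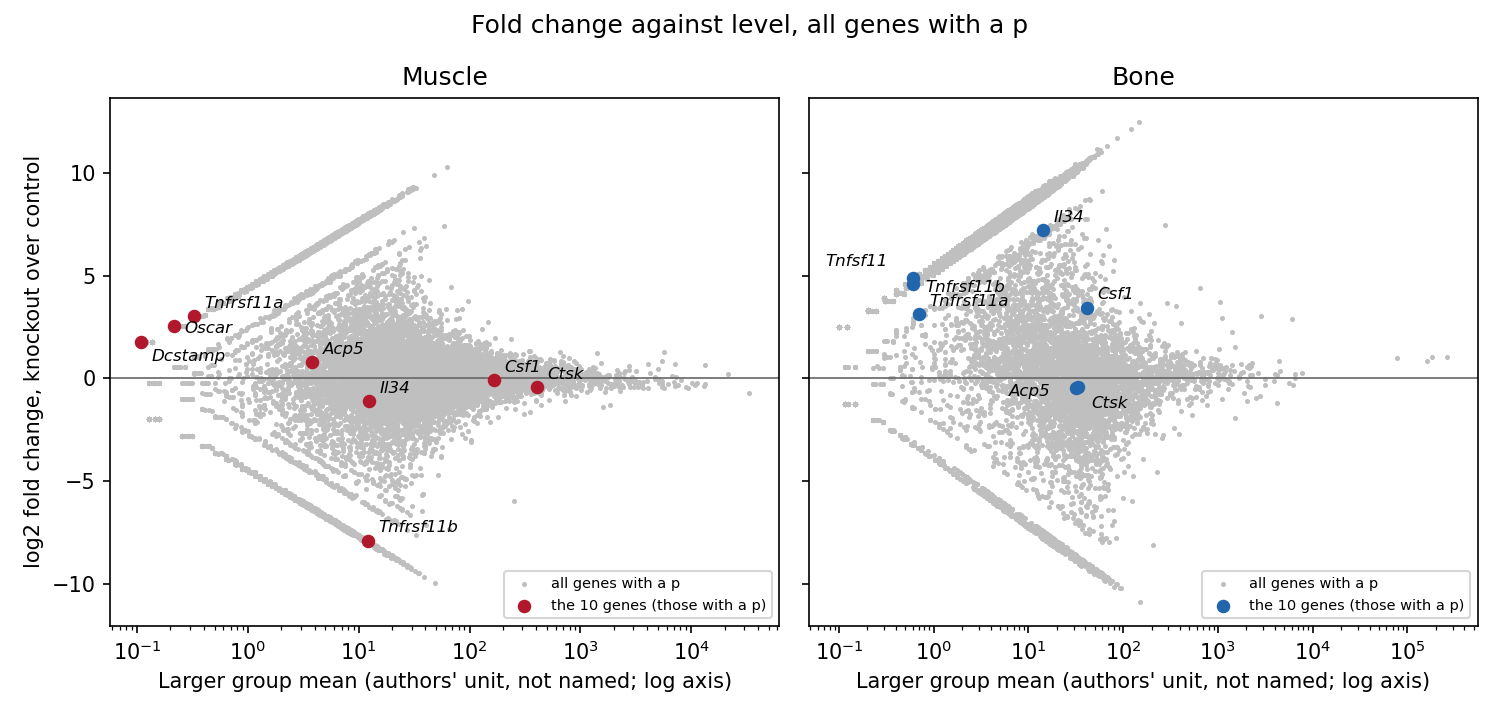
Log2 fold change of knockout over control against the larger group mean (log axis) for all genes with a p in muscle (left) and bone (right), with the genes of this set in colour. Tnfrsf11b in muscle (-7.91) lies among the lowest points of its level, and Csf1 and Ctsk in muscle lie near 0. Tnfsf11 in bone (4.87) lies at the top of the points of its level, where 31 of 131 genes within 10% of that level are as high or higher.

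In bone all 4 stromal regulators had positive log2 fold changes, in a table where 69.7% of the 10518 genes with a p did. The authors' deposited table put Il34, which supports monocyte and macrophage survival, at 7.21 (p = 0.00408, FDR = 0.0784, interval 2.29 to 12.13) and at a level of 14.3. That FDR was shared by 1253 bone genes. Among 478 genes within 10% of its level, 65.5% were positive, 46.9% had an unadjusted p under 0.05, and 150 (31.4%) had a value as high or higher. It put Csf1, by the authors' test, at 3.45 (p = 0.132, FDR = 0.266, interval -1.04 to 7.94). Of 376 genes within 10% of the Csf1 level, 47.1% were positive and 44 (11.7%) were as high or higher.

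RANKL and osteoprotegerin stood at nearly the same low level in bone. The authors' deposited table put the log2 fold change of Tnfsf11 at 4.87 (p = 0.109, no FDR, interval -1.09 to 10.83) at a level of 0.605. That of Tnfrsf11b was 4.61 in the authors' deposited table (p = 0.128, no FDR, interval -1.32 to 10.54) at 0.608. The 131 genes within 10% of either level had a median of 4.46 and a highest value of 4.87, and none had an unadjusted p under 0.05. Of the 131, 31 were as high as Tnfsf11 or higher, and 62 as high as Tnfrsf11b or higher. A ratio of RANKL to osteoprotegerin therefore cannot be read from these values.

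**Figure D3:**
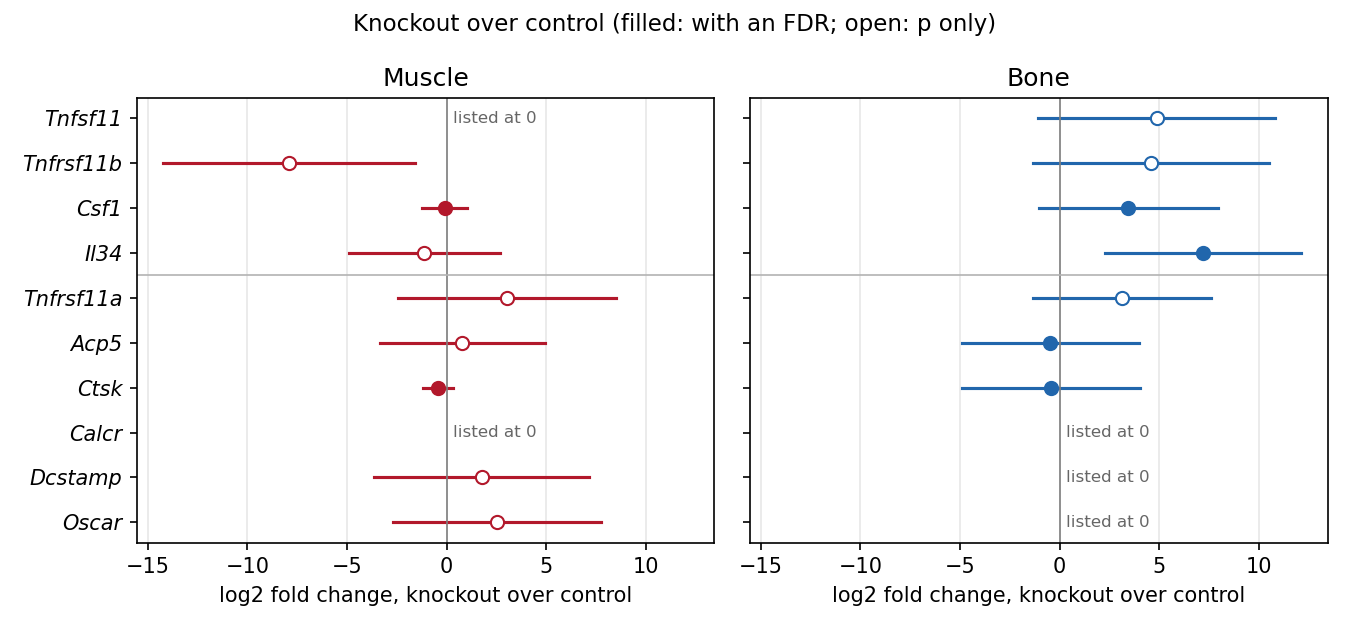
Log2 fold change of knockout over control for each gene in muscle (left) and bone (right), with lines for the approximate 95% interval computed from the authors' p; filled points have an FDR, open points only a p. The intervals of Csf1 (-1.24 to 1.04) and Ctsk (-1.18 to 0.30) in muscle are the narrowest, and those of Tnfrsf11b in muscle, which has no FDR, and Il34 in bone, which did not pass the FDR, do not reach 0.

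Ctsk had the highest level and the narrowest interval of the set in muscle. It encodes cathepsin K, the collagen-degrading protease of the osteoclast, and is also known from fibroblasts and periosteal mesenchymal cells. Ctsk (ENSMUSG00000028111, chromosome 3, 95499256 to 95509362) stood, in the authors' deposited table for muscle, at a log2 fold change of -0.44 (p = 0.246, FDR = 1.00, interval -1.18 to 0.30). Of 83 muscle genes within 10% of its level, 14 (16.9%) were as low or lower. The authors' deposited table for bone put Ctsk at -0.45 (p = 0.845, FDR = 0.938), with a far wider interval of -4.92 to 4.02 at its lower level there. Acp5, the tartrate-resistant acid phosphatase of osteoclasts and some macrophages (ENSMUSG00000001348, chromosome 9, 22126727 to 22135711), stood in the authors' deposited tables at 0.80 in muscle (p = 0.707, no FDR) and at -0.46 in bone (p = 0.838, FDR = 0.935). It overlaps the noncoding gene 6530413G14Rik on the opposite strand.

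Of the osteoclast markers, some were at 0 and others well above it. Calcr, the calcitonin receptor, which in muscle is also known as a gene of quiescent muscle stem cells, was listed at 0 in both tables. Dcstamp, a membrane protein needed for precursor fusion, and Oscar, a costimulatory collagen receptor, were listed at 0 in bone. In the authors' deposited table for muscle they had 1.76 and 2.53 (p = 0.522 and 0.340). The 255 other muscle genes within 10% of the level of Dcstamp all had the same value, 1.76. The RANK gene Tnfrsf11a (ENSMUSG00000026321, chromosome 1, 105780718 to 105847981) stood in the authors' deposited tables at 3.02 in muscle (p = 0.279) and at 3.14 in bone (p = 0.170), at levels of 0.325 and 0.706. Among genes within 10% of its level, 37 of 91 in muscle and 99 of 121 in bone were as high or higher. The median of those bone genes was 4.81. Of 10 osteoclast marker genes, which include these 6, 2 were at 0 in muscle and 5 in bone, where 48.7% and 59% of all genes were. Among the others in bone, Itgb3 stood at 58.3, Mmp9 at 37.5, Ctsk at 33.7 and Acp5 at 31.7. Ocstamp, a fusion gene, was at 0 in both tables, and Atp6v0d2, a proton pump subunit gene, was at 0.108 in muscle and 0 in bone.

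The knockout effect was compared between muscle and bone for the 6 genes with a p in both tables. The difference of the log2 fold changes was set against its approximate error, and p-values were adjusted over all 9598 genes with a p in both. No gene of the set passed at an adjusted p of 0.05, nor did any of the 9598 genes (0%). At an unadjusted p under 0.05 the difference was below the threshold for 2 of the 6 and for 24.6% of all. By this approximation from the authors' p-values, Tnfrsf11b differed most, with -7.91 in muscle against 4.61 in bone (difference -12.52, interval -21.18 to -3.86, unadjusted p = 0.00462, adjusted p = 0.0987). By the same approximation from the authors' p-values, Il34 had -1.11 in muscle against 7.21 in bone (difference -8.33, interval -14.54 to -2.11, unadjusted p = 0.00865, adjusted p = 0.106). Both differences set a value from a table with a near-even split of signs against one where most genes were positive. The bone value of Tnfrsf11b came from a level of 0.608, where 62 of 131 genes within 10% were as high or higher. For Il34 in bone, 150 of 478 such genes were. For Ctsk the difference was 0.01 with an interval of -4.52 to 4.54, which does not show that the effects were alike. Again from the authors' p-values, Csf1 differed by -3.55 (interval -8.18 to 1.09, adjusted p = 0.350), Acp5 by 1.26 (adjusted p = 0.861) and Tnfrsf11a by -0.12 (adjusted p = 0.990).

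Downstream of the receptors, the genes that carry RANK and M-CSF signals were read as a list of 32. In muscle all 32 had a p, 21 had an FDR and 0 passed it in either direction, while 0 higher and 2 lower had an unadjusted p under 0.05, where 6.41% and 5.31% of all muscle genes were. Their median log2 fold change was 0.14, against 0.12 over all muscle genes. Nfatc1, the main transcription factor of osteoclast differentiation, was, in the authors' deposited table for muscle, at -0.15 with a level of 85.5 (p = 0.825). That table of the authors gave -6.62 for Map3k14, the kinase of the noncanonical NF-kappaB pathway (p = 0.0365), and -6.28 for Prdm1, a transcriptional repressor (p = 0.0419), at levels of 4.90 and 3.49. Jun, an AP-1 subunit gene at a level of 1150, had -0.67 there per the authors (p = 0.0547, FDR = 0.851). In bone 28 had a p, 25 had an FDR and 0 passed it. Their median was 2.74, against 2.51 over all bone genes, with 10 higher and 0 lower at an unadjusted p under 0.05, where 28.8% and 4.2% of all bone genes were. In the authors' deposited table for bone Nfatc1 had 10.07 at a level of 32.0 (p = 0.00231, FDR = 0.0784). Next by p there, Bcl6 had 9.13 at 15.3 per the authors (p = 0.00639, FDR = 0.0784). Map3k7 had 6.56 at 10.1, also per the authors (p = 0.00754, FDR = 0.0784). Spi1, the PU.1 factor of myeloid cells, had 6.16 at 8.27 in that table of the authors (p = 0.00888, FDR = 0.0784). Csf1r, the receptor of M-CSF and IL-34, had log2 fold changes in the authors' deposited tables of -1.48 in muscle (p = 0.496) and 7.91 in bone (p = 0.0127, FDR = 0.0790).

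Genes of precursor fusion, acid secretion and matrix resorption were listed under 18 names, of which 17 had a row. In muscle 16 had a p, 10 had an FDR and 0 passed it. At an unadjusted p under 0.05, 3 were higher and 1 lower (6.41% and 5.31% of all), and the median log2 fold change was 1.02 (0.12 over all). Cd47, a membrane protein that takes part in fusion, had 0.99 in the authors' deposited table for muscle at a level of 401 (p = 0.00849, FDR = 0.377). Itgav, an integrin chain of the osteoclast adhesion receptor, had 2.92 in the same table of the authors (p = 0.0229, FDR = 0.606). It was 3.93 for Ostm1, a partner of the osteoclast chloride channel (p = 0.0445), and -3.68 for the anion exchanger gene Slc4a2 (p = 0.0448), again per the authors' deposited table. In bone 15 had a p, 13 had an FDR and 0 passed it. At an unadjusted p under 0.05, 5 were higher and 0 lower, near the share over all bone genes (28.8% and 4.2%), and the median of 0.66 lay below that of all bone genes (2.51). Mmp9, a gelatinase made by osteoclasts and also by neutrophils, had 10.45 in the authors' deposited table for bone at 37.5 (p = 0.00211, FDR = 0.0784), and Slc4a2 had 9.44 (p = 0.00452, FDR = 0.0784). Itgb3, the partner chain of Itgav, had -4.03 at 58.3 per the authors (p = 0.104).

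Other factors that act on osteoclast formation, listed as stromal, were read as a list of 36 beside the 4 regulators. Whether stromal or blood cells gave their values was not tested. In muscle 30 had a p, 25 had an FDR and 0 passed it. With an unadjusted p under 0.05, 3 were higher and 4 lower (6.41% and 5.31% of all muscle genes), and the median was 0.40 (0.12 over all). Ccl7, a monocyte chemokine gene at a level of 516.0, stood, in the authors' deposited table, at -1.07 with the smallest p of the list (p = 0.00597, FDR = 0.310). In that table of the authors the interleukin-1 receptor gene Il1r1 had 1.70 at 114 (p = 0.0183, FDR = 0.545), and Efnb2, a membrane ligand in osteoblast and osteoclast contact, had -3.44 (p = 0.0202, FDR = 0.584). Sema3a, a secreted inhibitor of osteoclast formation, had -7.71 at 9.76 per the authors (p = 0.0135, no FDR). In bone 31 had a p, 28 had an FDR and 0 passed it. With an unadjusted p under 0.05, 9 were higher and 1 lower, near the share over all bone genes (28.8% and 4.2%), and the median of 0.49 lay below their 2.51. Il1b, an inflammatory cytokine that promotes resorption, was listed at 0 in muscle. The authors' deposited table for bone put it at 10.32 at a level of 33.6 (p = 0.00254, FDR = 0.0784). Sfrp1, a Wnt antagonist, had 8.35 at 6.96 in that table of the authors (p = 0.0111, FDR = 0.0784). The authors gave 5.96 for the chemokine gene Ccl9 (p = 0.0169, FDR = 0.0822) and 7.69 for Tgfb1, a latent growth factor of bone matrix (p = 0.0183, FDR = 0.0831).

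Markers of myeloid cells were read beside these lists. Of 16 macrophage and monocyte markers, all 16 had an FDR in bone and 0 passed. There 9 were higher and 0 lower at an unadjusted p under 0.05 (28.8% and 4.2% of all), with a median log2 fold change of 3.56 (2.51 over all) and a range of -2.02 to 9.08. Their levels in the bone table added up to 2043, led by Lyz2 at 1399. In the muscle table, whose levels may be on a scale of their own, they added up to 122. In the authors' deposited table for bone Adgre1, an adhesion receptor gene of macrophages, had 8.24 at 8.31 (p = 0.0114, FDR = 0.0784). No macrophage marker was at 0 in either table. In muscle only 1 of the 16 had an FDR and it did not pass. Of the 16, 0 were higher and 1 lower at an unadjusted p under 0.05 (6.41% and 5.31% of all), and the median was 1.65 (0.12 over all). Of 12 neutrophil and erythroid genes, all 12 were positive in bone, where 69.7% of all genes were. Of these 1 rose (Ltf, 7.45 in the authors' deposited table, FDR = 0.000229) and the other 11 did not pass, with 5 higher and 0 lower at an unadjusted p under 0.05. In muscle 8 of 9 with a p were negative, where 53.5% of all genes were positive. Of the 9, 5 had an FDR and 0 passed it, with 0 higher and 3 lower at an unadjusted p under 0.05. Alas2, an enzyme gene of heme synthesis in erythroid cells, had the smallest p of these, at -5.64 in the authors' deposited table for muscle (p = 0.000409, FDR = 0.132). The part of these cells in the bone values of Il34, Csf1, Csf1r, Nfatc1, Spi1, Mmp9, Il1b and Ccl9 was not tested.

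**Figure D4:**
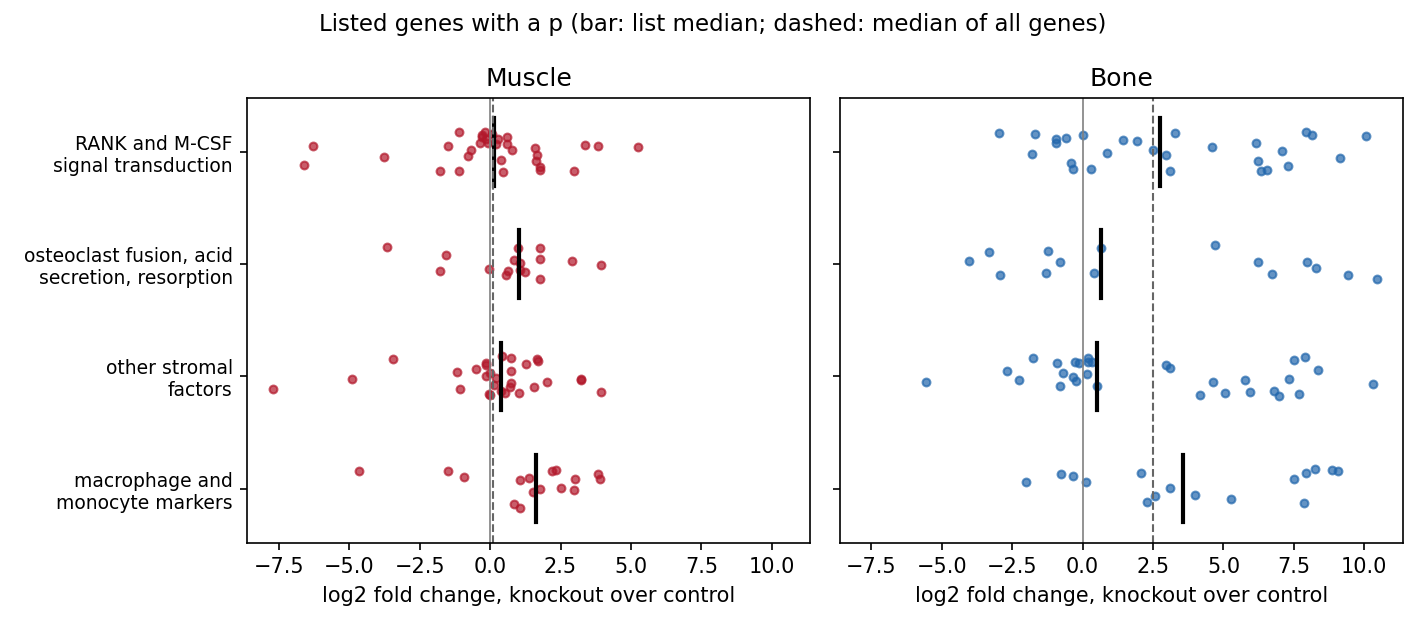
Log2 fold change of knockout over control for the genes with a p in 4 lists, in muscle (left) and bone (right), each point 1 gene, with the black bar at the list median and the dashed line at the median of all genes with a p. From top to bottom the list medians are 0.14, 1.02, 0.40 and 1.65 in muscle, where the all-gene median is 0.12. In bone they are 2.74, 0.66, 0.49 and 3.56, where the all-gene median is 2.51. The points run from -7.71 to 5.26 in muscle and from -5.58 to 10.45 in bone.

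Mesenchymal and bone lineage markers gave the setting of the stromal regulators. In muscle all 11 PDGFRα+ mesenchymal markers had a p, with Dcn at 13437 and Col3a1 at 7133. Of the 11, 10 had an FDR and 0 passed it. There 3 were higher and 0 lower at an unadjusted p under 0.05 (6.41% and 5.31% of all), and the median was 0.57 (0.12 over all). In bone 10 had an FDR and 0 passed it, and the median was 1.06 (2.51 over all). There 8 were positive and 3 negative, where 69.7% of all genes were positive. The authors' deposited table had Pdgfrb highest at 8.27 (p = 0.00162, FDR = 0.0784). The 3 negative genes there were Dcn (-0.69 at a level of 674), Col3a1 (-0.89 at 507) and Lum (-1.43 at 83.5). Osteoblast lineage markers held 10 genes. In bone 7 had an FDR and 0 passed it, with 2 higher and 1 lower at an unadjusted p under 0.05 (28.8% and 4.2% of all). In the authors' deposited table for bone Alpl, which encodes the mineralization enzyme alkaline phosphatase, had -3.95 at a level of 162 (p = 0.0160, FDR = 0.0822), while Bglap2, an osteocalcin gene, had 9.63 at 16.9 (p = 0.00489, FDR = 0.0784). In muscle 8 had a p, but only 1 had an FDR and it did not pass. Of 10 muscle stem cell markers 7 were above 0 in muscle, led by Sdc4 at 98.4, and 4 in bone. An FDR was given for 6 of them in muscle and 3 in bone, and 0 passed. In muscle 0 were higher and 1 lower, Myod1, at an unadjusted p under 0.05, and in bone 0 were.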

How the data were processed

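Per the labels' protocols, total RNA was made into libraries with the QuantSeq kit, which reads transcript 3' ends, and the submitters' processing notes name GRCm38 and mm10. Not given in the sources used here were the aligner, the counting tool and the test. Each tissue has 1 table. Per the file headers, the log2 fold changes, signed fold changes and p-values (raw, FDR, Bonferroni) are those of the authors for knockout over control. The larger group mean is a deposited score whose unit the header does not name. The tables also hold 48 per-library columns whose codes match no label, so they were not used, the planned count-based tests were not run, and the authors' comparison took their place. In muscle 13158 genes had a p and 7107 an FDR, and in bone 10518 and 8534.

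Benjamini-Hochberg adjustment over the genes with an FDR differed from the deposited FDR by at most 0.000995 in muscle and 0.000142 in bone. Intervals and the difference between tissues used a standard error computed from each fold change and p (normal approximation, 95%). Python 3.11.15, pandas 2.3.3 and scipy 1.17.1 were used. Table coordinates equalled GRCm38 (GENCODE M21, matched by Ensembl ID) for 551 of 25600 genes and for 1 of the 10 described, so GRCm38 positions are printed instead. The genes and lists were chosen with earlier results of these data known. Text names all 10 genes, Esr1 and Pdgfra, and up to 4 listed genes of smallest p per list and tissue. Markers of other cells, genes at 0, Nfatc1, Csf1r and Itgb3 were named after their values were seen, and the comparison with genes of like level was added then too. Alternatives were other call thresholds, adjustment over all genes with a p, and a minimum level of 50.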

Additional observations from a re-analysis of the deposited data

How the results depend on the processing

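The count of called genes among the 10 was 0 in each tissue at the authors' FDR of 0.05, with a Bonferroni p under 0.05 and with Benjamini-Hochberg over all genes with a p. It was 1 in muscle (Tnfrsf11b) and 1 in bone (Il34) at an unadjusted p under 0.05, and at an FDR under 0.1 it was 0 in muscle and 1 in bone (Il34). With genes at a level of at least 50 alone it was 0 in muscle, where 2 of the 10 remained, and could not be had in bone, where none did. For the difference between tissues the count was 0 when adjusted and 2 at an unadjusted p under 0.05 (Tnfrsf11b and Il34), and with a level of at least 50 in both tables no gene of the set was left. Ranked among all genes of each table, 5 of the 10 genes stood higher in muscle than in bone. That count includes Dcstamp and Oscar, which were at the floor in muscle and at 0 in bone. Calcr, at 0 in both tables, was counted as higher in bone only through the ranks of ties at 0. The count is therefore partly set by genes at or near 0. Among genes above 0 in both tables, an alternative chosen after seeing the data, the count was 3 of 6, because Dcstamp and Oscar are listed at 0 in bone. No paired analysis was possible because the per-library columns carry codes that match no label. For the same reason DESeq2 was not run, nor was a filter on counts or leaving out a replicate or the control of differing genotype. Depth per library is not known here, and 6 of the 8 muscle genes and 3 of the 7 bone genes with a p had no FDR and were not put to that threshold.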
